A study of Mus musculus with 23 samples.

Results

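Plasma cell genes were followed together with Pigr, the gene of the epithelial receptor that carries antibodies into the gut lumen, in the colon of mice with chronic colitis. The set held 9 of the 18194 genes measured: Prdm1, Xbp1, Irf4, Pou2af1, Mzb1, Derl3, Tnfrsf17, Sdc1 and Pigr. They were chosen by name for their known roles, with earlier results of these data known. The context lists below were chosen in the same way, so counts and medians of these sets are descriptions and not independent support. The arrays carried 17 probe sets for them, and each gene is described by the probe set of its own with the highest mean over all arrays (1420425_at for Prdm1, 1420012_at for Xbp1, 1421173_at for Irf4, 1416957_at for Pou2af1, 1428947_at for Mzb1, 1453677_a_at for Derl3, 1420782_at for Tnfrsf17, 1415943_at for Sdc1 and 1450060_at for Pigr).

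Total RNA of colon from BALB/c mice was hybridised to 1 Affymetrix array per sample, 23 arrays in all, and values are on a log2 scale. The 4 groups were untreated wild type (WT, n = 5), wild type with TNBS (n = 6), untreated knockout of FN14 (KO, n = 5) and the same knockout given TNBS (n = 7). FN14 is encoded by Tnfrsf12a and binds the cytokine TWEAK. The sources used here do not say how the knockout was made. TNBS is a hapten that, given into the rectum in ethanol, causes colitis. Per the labels' protocols a 0.2% solution was given over 6 weeks, in volumes that started at 1 and ended at 2 ul/g, with tissue taken 3 days after the last dose. The labels do not state whether untreated mice received the solvent, so a difference with TNBS includes the procedure. Nor do they state that each sample came from its own mouse, so the spread behind each p-value may be technical.

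A B cell becomes a plasma cell when the transcription factors IRF4 and PRDM1 (Blimp-1) shut down the B cell programme and XBP1 enlarges the secretory apparatus. Most plasma cells of the gut lamina propria make dimeric IgA, which the J chain joins. PIGR on the basolateral side of the epithelium binds these antibodies, carries them across the cell and is cleaved to release secretory IgA into the lumen. The colon epithelium also expresses XBP1 and SDC1, so bulk tissue RNA of those genes has more than 1 source. In bulk RNA, fewer cells of a type and less RNA per cell cannot be told apart.

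Tnfrsf12a, the deleted gene, checks the genotype labels. It lay between 5.86 and 8.25 on the 11 wild-type arrays and between 3.84 and 4.17 on the 12 knockout arrays, with no overlap. All 12 epithelial genes of the marker list were detected, and their mean lay between 12.95 and 13.09 on every array, which bears on the tissue label, colon. Squamous keratin genes, which colon epithelium lacks, were also present. The log2 of their summed level ranged from 7.24 to 8.56 in untreated wild type, from 8.81 to 11.47 in wild type with TNBS, from 7.53 to 10.32 in the untreated knockout and from 8.43 to 12.36 in the knockout with TNBS. Arrays of a group correlated at 0.989 to 0.998.

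Promoter sequences are shown for the 4 genes whose 250 bases before the RefSeq start held a motif of factors known from plasma cells or from Pigr. Both strands were searched in GRCm38.p6 for 6 motifs, and capitals mark the matches. They were the unfolded protein response element core TGACGTGG, the endoplasmic reticulum stress element (ERSE), the E box CACGTG, the interferon repeat, the IRF4 composite element (EICE) and the octamer ATTTGCAT. The first 2 are bound by XBP1 or ATF6, the E box by USF factors, and the octamer by the POU proteins that POU2AF1 assists. The Derl3 window (chr10:75893148-75893397, plus strand) held the stress element on the reverse strand, 156 to 138 bases before the start, which 0.113% of 32851 promoter windows held. It also held an E box at 168 to 163 bases, found in 6.02% of windows, and the matches did not overlap. The Pou2af1 window (chr9:51213440-51213689, plus strand) held the core element at 61 to 54 bases, found in 0.563% of windows. The Pigr window (chr1:130826434-130826683, plus strand) held an E box at 71 to 66 bases. The Tnfrsf17 window (chr16:11313559-11313808, plus strand) held the interferon repeat on the reverse strand at 101 to 92 bases, found in 2.98% of windows. No window of the 8 searched held the octamer (1.6% of all windows) or the IRF4 composite element (2.3%), and the windows of Prdm1, Xbp1, Irf4 and Sdc1 held none of the 6. A match is a run of letters and not a measured binding site.
Derl3: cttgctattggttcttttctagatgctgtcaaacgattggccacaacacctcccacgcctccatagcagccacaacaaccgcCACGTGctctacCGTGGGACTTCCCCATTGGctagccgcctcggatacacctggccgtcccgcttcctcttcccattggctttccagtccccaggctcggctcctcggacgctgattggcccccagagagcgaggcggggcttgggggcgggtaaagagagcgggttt
Pou2af1: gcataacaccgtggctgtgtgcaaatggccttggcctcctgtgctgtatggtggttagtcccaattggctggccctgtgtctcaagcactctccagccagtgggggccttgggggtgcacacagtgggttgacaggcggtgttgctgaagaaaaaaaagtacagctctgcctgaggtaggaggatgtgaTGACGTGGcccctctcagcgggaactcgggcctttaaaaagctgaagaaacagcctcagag
Pigr: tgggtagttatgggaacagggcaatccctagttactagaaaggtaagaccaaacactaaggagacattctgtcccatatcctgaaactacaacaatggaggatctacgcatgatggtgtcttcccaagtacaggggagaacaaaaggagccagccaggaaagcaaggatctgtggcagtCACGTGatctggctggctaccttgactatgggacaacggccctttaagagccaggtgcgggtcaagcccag
Tnfrsf17: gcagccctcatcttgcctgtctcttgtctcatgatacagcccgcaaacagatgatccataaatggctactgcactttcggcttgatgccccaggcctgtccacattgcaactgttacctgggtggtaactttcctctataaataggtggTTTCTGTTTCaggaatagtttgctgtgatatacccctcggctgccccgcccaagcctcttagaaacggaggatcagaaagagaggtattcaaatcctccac

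With TNBS, 6 of the 9 genes rose in the wild type and the same 6 rose in the knockout, while Xbp1, Sdc1 and Pigr did not pass the test in either. The transcription factors Prdm1, Irf4 and Pou2af1, the secretory proteins Mzb1 and Derl3 and the survival receptor Tnfrsf17 rose by 0.76 to 1.18 in the wild type and by 0.72 to 1.78 in the knockout. Without TNBS, Mzb1, Pou2af1 and Derl3 were lower in the knockout than in the wild type by 0.88 to 1.20. With TNBS, no gene of the set passed the test between genotypes. A gene is called where limma's p, adjusted by Benjamini-Hochberg over all 18194 genes, is under 0.05, and ± beside a difference is its standard error. Of all genes, 10.2% were called higher with TNBS in the wild type and 4.08% in the knockout. Between untreated genotypes 1.91% were called lower, and 10.5% were called either way between genotypes with TNBS. The median difference over the 9 genes was 0.89, 0.85, -0.31 and -0.34 in these 4 comparisons in turn, beside a median of 0.00 over all genes.

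**Figure D1:**
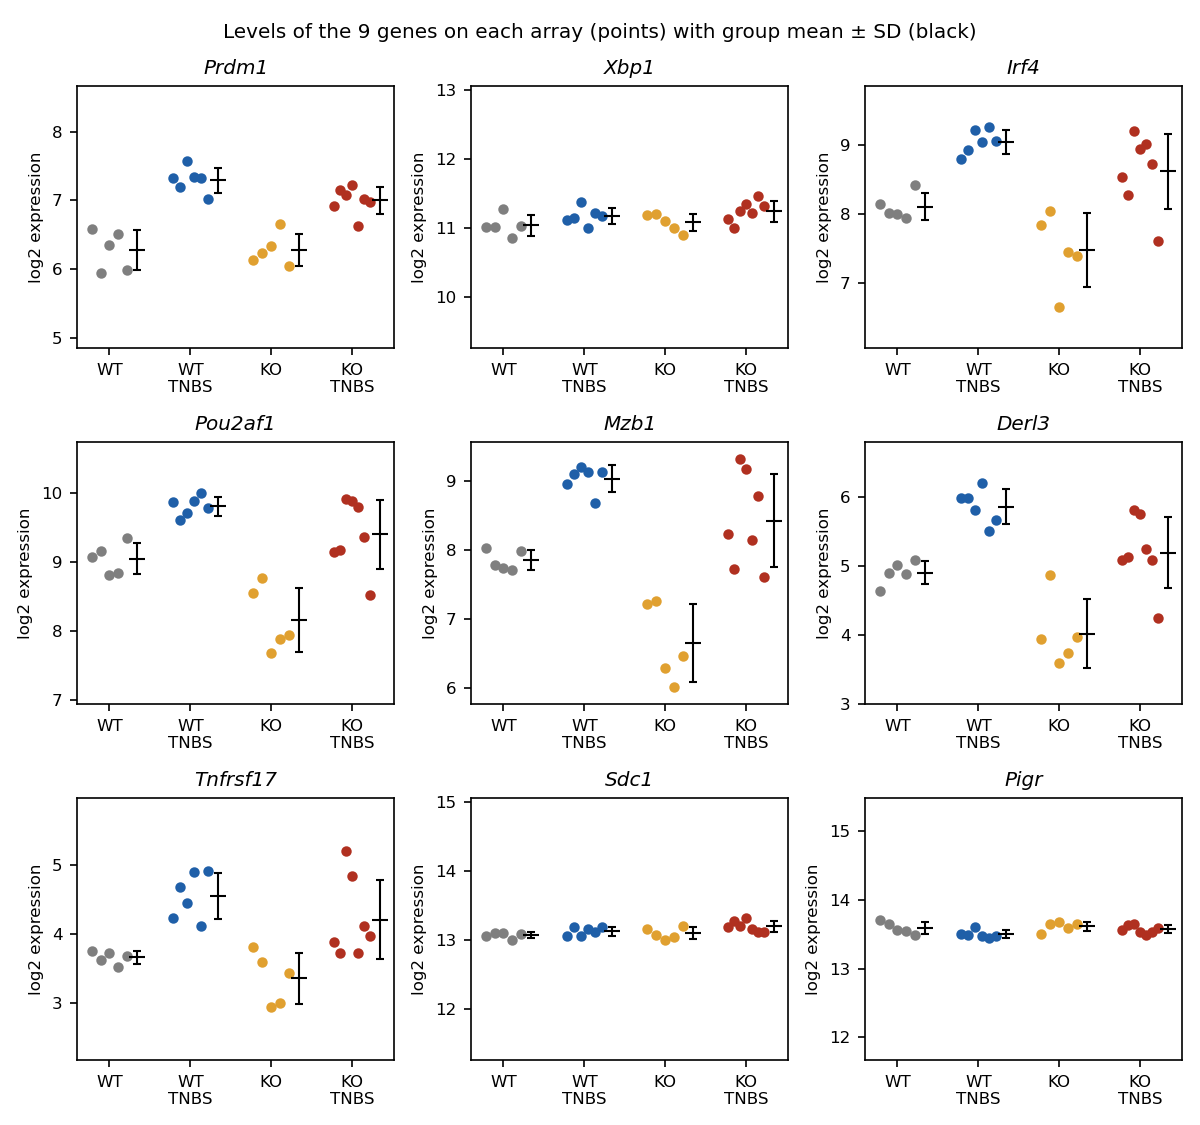
Log2 expression (vertical axis) of the 9 genes on each of the 23 arrays (points) in the 4 groups, with the group mean and SD in black, on axes of equal span. The points of Mzb1 in the untreated knockout lie between 6.02 and 7.26, below all 5 untreated wild-type arrays, while the 23 points of Pigr lie between 13.44 and 13.71.

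**Figure D2:**
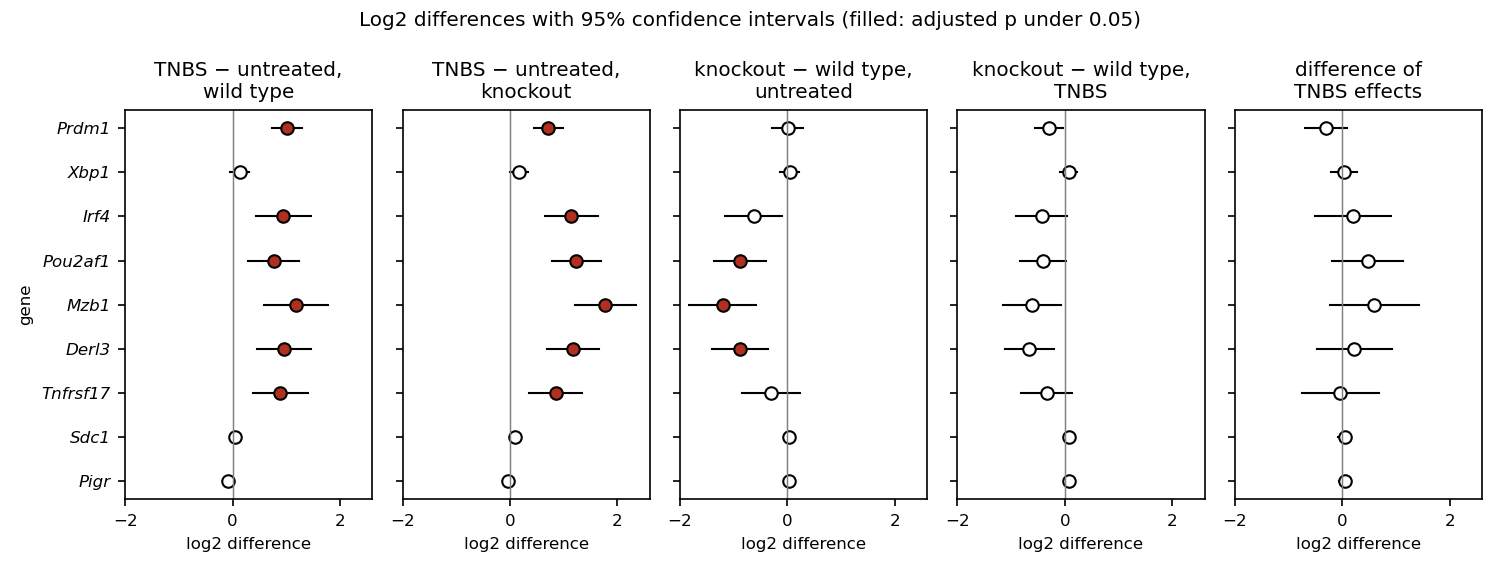
Log2 differences of the 9 genes (horizontal axis) in 5 comparisons, with 95% confidence intervals as lines and filled points where the adjusted p was under 0.05. The 6 filled points in each of the panels for TNBS lie right of 0, and the 3 filled points between untreated genotypes lie left of it.

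Prdm1 encodes Blimp-1, a repressor that ends the B cell programme and that T cells and other cells also use. In untreated wild type its log2 level was 6.59, 5.95, 6.36, 6.51 and 6.00 on the 5 arrays, and with TNBS it ranged from 7.02 to 7.57 (median 7.33). In the untreated knockout it was 6.13, 6.24, 6.33, 6.66 and 6.06, and with TNBS it ranged from 6.62 to 7.22 (median 7.02). All 6 treated wild-type arrays lay above all untreated ones, whereas in the knockout 1 untreated array at 6.66 lay just above the lowest treated array. The rise was 1.01 ± 0.13 in the wild type (2.02-fold, adjusted p = 3.74e-05) and 0.72 ± 0.13 in the knockout (1.64-fold, adjusted p = 0.00226). It was called in both genotypes under all 36 alternative settings. Between genotypes the difference was 0.00 without TNBS (95% interval -0.29 to 0.30) and -0.29 with it (interval -0.55 to -0.04, adjusted p = 0.146), and neither passed.

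Irf4, the factor that with a high dose commits a B cell to the plasma cell state, lay at 8.14, 8.02, 8.01, 7.94 and 8.43 in untreated wild type. With TNBS it ranged from 8.80 to 9.26 (median 9.05) and did not overlap the untreated arrays. The untreated knockout arrays were spread more widely, at 7.84, 8.04, 6.65, 7.45 and 7.39, and those with TNBS ranged from 7.61 to 9.21 (median 8.72). The lowest of these, replicate 7, lay within the untreated range, and replicate 3 was the highest. Irf4 rose by 0.94 ± 0.25 in the wild type (1.92-fold, adjusted p = 0.0116) and by 1.14 ± 0.24 in the knockout (2.21-fold, adjusted p = 0.00585). The second Irf4 probe set, 1421174_at, lay at or near the lowest value on every array (highest 2.19), and the mean of both probe sets rose by 0.48 and 0.57. Fitted on the knockout arrays alone, the rise of the probe set described had an adjusted p of 0.0651. Between untreated genotypes the difference of -0.63 (interval -1.17 to -0.09) had an adjusted p of 0.173, and with TNBS it was -0.43 (adjusted p = 0.267). The order of group means ran from wild type with TNBS (9.05 ± 0.17, SD, n = 6) through knockout with TNBS (8.62 ± 0.54, n = 7) and untreated wild type (8.11 ± 0.19, n = 5) to the untreated knockout (7.48 ± 0.53, n = 5), and each pair of neighbours overlapped.

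Pou2af1 encodes OBF-1, a coactivator of octamer-binding factors in B cells and plasma cells. Its levels in untreated wild type were 9.07, 9.16, 8.81, 8.84 and 9.35, and in the untreated knockout 8.55, 8.76, 7.68, 7.88 and 7.94. Every knockout value was below every wild-type value, as for Mzb1 below and for 2.18% of all genes. The knockout was lower by 0.88 ± 0.24 (1.84-fold, adjusted p = 0.036). This call ended without replicate 3, 4 or 5 of the untreated knockout or replicate 1, 2 or 5 of the untreated wild type, with adjusted p up to 0.0939. With TNBS, Pou2af1 ranged from 9.61 to 10.00 (median 9.83) in the wild type and from 8.52 to 9.91 (median 9.37) in the knockout. It rose by 0.76 ± 0.23 (1.70-fold, adjusted p = 0.0246) and by 1.24 ± 0.22 (2.36-fold, adjusted p = 0.00185). The rise in wild type was not called without untreated replicate 3 or 4 or TNBS replicate 5, where the adjusted p was 0.0582, 0.0613 and 0.0509. Its promoter window, printed above, and that of Derl3 were the windows of the 8 that held an unfolded protein response or stress element.

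Mzb1 encodes a chaperone of the endoplasmic reticulum that assists antibody assembly and secretion in B cells and plasma cells. Its untreated wild-type levels were 8.04, 7.79, 7.74, 7.72 and 7.996, and its untreated knockout levels were 7.23, 7.26, 6.29, 6.02 and 6.47. The 5 knockout arrays all lay below the wild type, and replicates 1 and 2 were the highest of them. With TNBS it ranged from 8.69 to 9.21 (median 9.12) in wild type and from 7.61 to 9.32 (median 8.24) in the knockout. There replicates 3, 4 and 6 reached the wild-type range and replicate 7 was lowest. Mzb1 had the largest rise of the set in both genotypes, by 1.18 ± 0.28 in wild type (2.27-fold, adjusted p = 0.00695) and by 1.78 ± 0.28 in the knockout (3.43-fold, adjusted p = 0.000621). In the knockout it was the only gene of the 9 whose treated and untreated arrays did not overlap, as 1.97% of all genes did in that direction. In the wild type all 6 called genes were separated in this way, beside 6.99% of all genes. The untreated knockout was lower by 1.20 ± 0.30 (2.30-fold, adjusted p = 0.0248). That call ended without replicate 3 or 4 of the untreated knockout or replicate 1 or 5 of the untreated wild type, where the adjusted p was 0.0586, 0.0733, 0.0616 and 0.0526. With TNBS the knockout differed by -0.61 (interval -1.16 to -0.06, adjusted p = 0.159).

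Derl3 encodes Derlin-3, a membrane protein of the pathway that removes misfolded proteins from the endoplasmic reticulum. It was at 4.63, 4.89, 5.01, 4.88 and 5.09 in untreated wild type and at 3.94, 4.86, 3.59, 3.73 and 3.97 in the untreated knockout, where replicate 2 alone lay within the wild-type range. With TNBS it ranged from 5.50 to 6.20 (median 5.89) in wild type and from 4.24 to 5.81 (median 5.13) in the knockout. It rose by 0.95 ± 0.24 in wild type (1.94-fold, adjusted p = 0.00932) and by 1.17 ± 0.23 in the knockout (2.26-fold, adjusted p = 0.00414). The untreated knockout was lower by 0.88 ± 0.25 (1.85-fold, adjusted p = 0.0475). This was the least stable call of the set. It was lost on leaving out any 1 of 18 of the 23 arrays (adjusted p up to 0.115), and held only without replicate 2 of the untreated knockout, replicate 3, 4 or 7 of the knockout with TNBS, or replicate 4 of wild type with TNBS. With TNBS the difference between genotypes was -0.66 ± 0.22 (adjusted p = 0.0607). With values below log2 5 set to 5, the rise in the knockout shrank to 0.30 (adjusted p = 0.214) and the untreated difference to -0.02 (adjusted p = 1), and neither was called. The difference between genotypes with TNBS passed without replicate 2 of the untreated knockout (adjusted p = 0.0322) and without replicate 3 or 4 of the knockout with TNBS (0.0324 and 0.0348). It also passed with that floor (-0.55, adjusted p = 0.00857) and among the 11117 genes above log2 5 on at least 5 arrays (adjusted p = 0.0327).

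Tnfrsf17 encodes BCMA, the receptor for the survival cytokines APRIL and BAFF on plasma cells. Its signal was low, at 3.75, 3.62, 3.73, 3.52 and 3.69 in untreated wild type and at 3.81, 3.59, 2.95, 3.00 and 3.44 in the untreated knockout, so the untreated genotypes overlapped. With TNBS it ranged from 4.12 to 4.91 (median 4.57) in wild type and from 3.73 to 5.20 (median 3.97) in the knockout. Replicates 3 and 4 of the knockout with TNBS were the highest there, as for Mzb1. The rise was 0.89 ± 0.24 in wild type (1.85-fold, adjusted p = 0.0166) and 0.85 ± 0.24 in the knockout (1.81-fold, adjusted p = 0.0301). In the knockout it was not called without untreated replicate 3 or 4 or TNBS replicate 4 (adjusted p = 0.0879, 0.0841 and 0.0603), nor in a fit of the knockout arrays alone (0.127). Only 1 of its values lay above log2 5, and fold changes are understated so near the lowest value of the arrays, 2.17. With values below log2 5 set to 5 the rises were 0.00 and 0.03 and were not called. The genotype difference was -0.31 (interval -0.84 to 0.23) without TNBS and -0.34 (interval -0.81 to 0.13) with it.

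Xbp1, Sdc1 and Pigr showed small differences in every comparison. Xbp1 encodes the transcription factor that expands the secretory pathway. It lay at 11.01, 11.02, 11.28, 10.86 and 11.04 in untreated wild type and ranged from 11.01 to 11.37 (median 11.16) with TNBS, a difference of 0.13 (interval -0.04 to 0.31, adjusted p = 0.335). In the knockout the untreated arrays were at 11.19, 11.21, 11.11, 11.005 and 10.90 and the treated ones ranged from 11 to 11.47 (median 11.24), a difference of 0.16 (interval -0.01 to 0.33). The groups overlapped in each comparison, and none of its 4 probe sets passed with TNBS in wild type. A probe set measures the transcript and does not separate the spliced form that makes the active factor.

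Sdc1 encodes syndecan-1 (CD138), a surface proteoglycan by which plasma cells are sorted and which epithelium also carries. The untreated wild-type values were 13.06, 13.11, 13.11, 13.01 and 13.09 and the untreated knockout values 13.16, 13.08, 13.01, 13.05 and 13.21. With TNBS it ranged from 13.05 to 13.20 (median 13.14) in wild type and from 13.12 to 13.32 (median 13.19) in the knockout, overlapping the untreated arrays in each genotype. The difference with TNBS was 0.05 (interval -0.03 to 0.14) in wild type and 0.10 (interval 0.01 to 0.18, adjusted p = 0.146) in the knockout. Of its 4 probe sets, 1437279_x_at alone passed over all probe sets with TNBS in wild type, at 0.15 ± 0.04 (adjusted p = 0.018), while 2 others were negative there at -0.05 and -0.13.

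Pigr was at 13.71, 13.64, 13.55, 13.55 and 13.49 in untreated wild type and ranged from 13.44 to 13.60 (median 13.48) with TNBS. In the untreated knockout it was at 13.50, 13.65, 13.68, 13.58 and 13.64, and with TNBS it ranged from 13.49 to 13.65 (median 13.56). All 4 groups overlapped. The difference with TNBS was -0.09 ± 0.04 in wild type (interval -0.18 to -0.01, adjusted p = 0.13) and -0.04 ± 0.04 in the knockout (interval -0.12 to 0.04). With each array centred on its median, the wild-type difference became -0.15 and was called (adjusted p = 0.0191). Between genotypes it was 0.02 (interval -0.06 to 0.11) without TNBS and 0.08 (interval 0.00 to 0.15, adjusted p = 0.229) with it. Its other probe set, 1455490_at, gave -0.05 with TNBS in wild type (interval -0.14 to 0.05). In the comparisons as fitted no interval reached beyond 0.18 in size, on a probe set in the upper part of a value range that ends at 15.98.

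The difference between the TNBS effects of the genotypes was called for none of the 9 genes with limma, none had an unadjusted p under 0.05, and 2.00% of all genes were called. It was 0.59 for Mzb1 (interval -0.23 to 1.42), 0.47 for Pou2af1 (interval -0.18 to 1.13) and -0.30 for Prdm1 (interval -0.69 to 0.09). The intervals leave differences of more than 1 log2 unit possible for the first pair. Between genotypes with TNBS, where none was called, 3 genes (Prdm1, Mzb1 and Derl3) had an unadjusted p under 0.05 with limma, all with negative differences. The Gapdh 3' minus 5' signal, a measure of RNA integrity, also differed between these groups (0.943 ± 0.031 in the knockout and 1.06 ± 0.072 in wild type, SD), and its part was not tested. The comparisons share groups, so these values are given side by side and not as separate support.

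Some calls changed when the mean level of a marker list entered the fit. When the mean of the squamous keratin list entered the fit as a covariate, only Prdm1 of the 6 was still called, and the differences of the others were 0.64 to 0.92 with adjusted p from 0.0758 to 0.173. Of that list, 3 of 11 genes rose with TNBS in wild type, among them the basal keratin Krt14 at 4.11 ± 0.82 (adjusted p = 0.00178). In the knockout the same covariate left 4 of the 6 called, without Irf4 and Tnfrsf17. The mean of the epithelial list as a covariate ended the same pair of calls in the knockout (adjusted p = 0.0626 and 0.176) and that of Pou2af1 in wild type (0.0729). Between untreated genotypes, all 3 calls ended in a fit of those groups alone and again with the mean of the epithelial list as a covariate. The epithelial sum ranged from 16.89 to 16.95 in untreated wild type and from 16.94 to 16.97 in the untreated knockout. The share of values at the lowest level was also higher in the untreated knockout (28.3% ± 0.16, SD, n = 5) than in wild type (27.4% ± 0.34, n = 5, exact permutation p = 0.00794, adjusted over 12 tests 0.0476). Its part in the genotype differences was not tested.

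Irf4, Pou2af1, Derl3, Mzb1 and Tnfrsf17 rose and fell together over the arrays taken as a whole, a grouping made after the values were seen. Over the 23 arrays their 10 pairs correlated at 0.81 to 0.97 (Pearson r). After the group means were subtracted the range was 0.52 to 0.91. These values rest mostly on the knockout groups, where all 5 genes spread more. For Mzb1 the SD was 0.56 and 0.68 in the knockout without and with TNBS, beside 0.15 and 0.19 in wild type. The pattern did not hold in each group. In wild type with TNBS, replicate 5 was the highest for Irf4 and Pou2af1 and the lowest for Mzb1, Derl3 and Tnfrsf17. The group means of the 5 genes also ran in 1 order, from wild type with TNBS through knockout with TNBS and untreated wild type to the untreated knockout. For Mzb1 these means were 9.04, 8.43, 7.86 and 6.65, for Pou2af1 9.81, 9.40, 9.05 and 8.16, for Derl3 5.85, 5.19, 4.90 and 4.02, and for Tnfrsf17 4.55, 4.21, 3.66 and 3.36. The knockout with TNBS overlapped untreated wild type for each of them. Irf4 with Pou2af1 had the highest value within groups, at 0.91. Prdm1 correlated with these 5 genes at 0.64 to 0.71 over all arrays and at -0.20 to -0.02 within groups. Xbp1 and Sdc1 reached 0.27 to 0.50 with them over all arrays, and Pigr had negative values of -0.55 to -0.40 that shrank to between -0.25 and 0.01 within groups. The arrays share group means, and within groups 5 to 7 arrays each, so these are descriptions without a test.

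**Figure D3:**
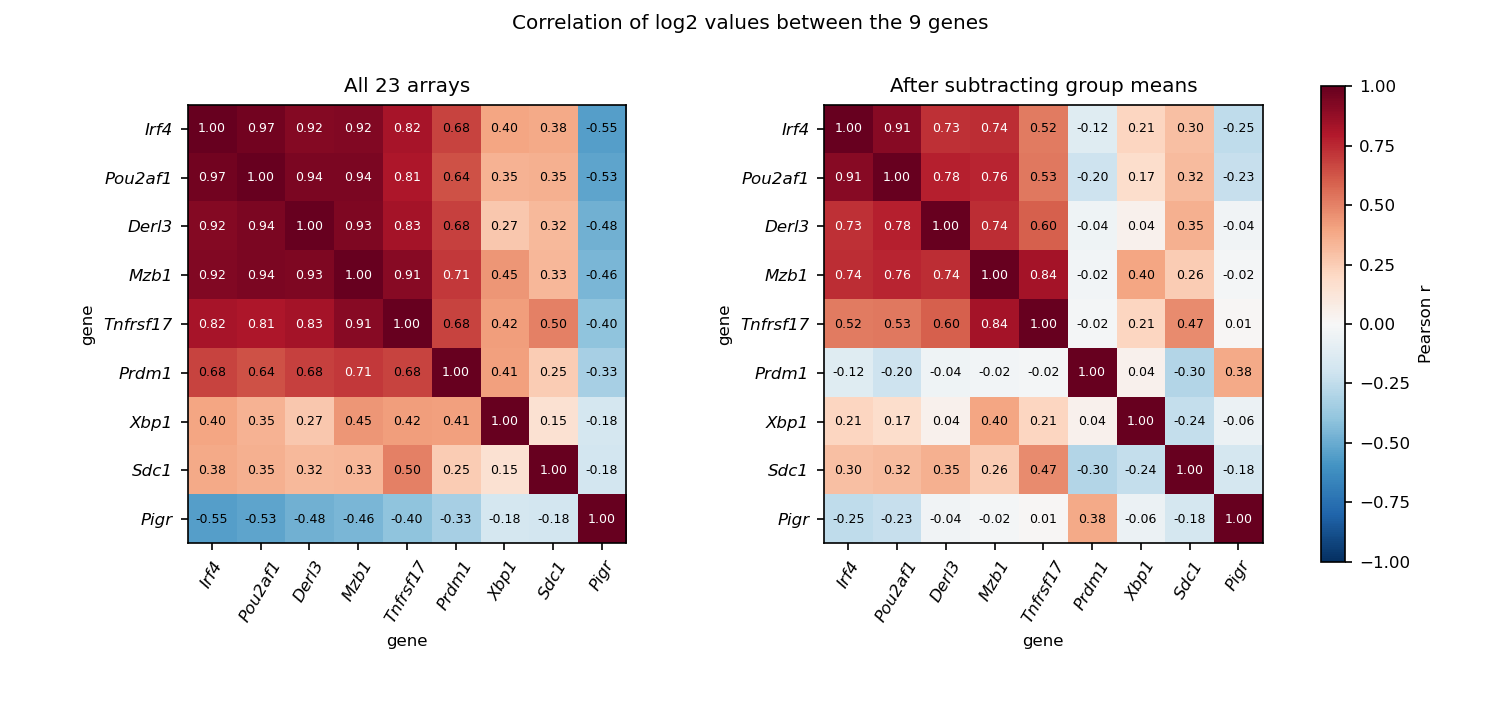
Pearson correlation (colour and printed value) of log2 values between the 9 genes, over all 23 arrays at left and after subtraction of the group means at right. The upper left block of Irf4, Pou2af1, Derl3, Mzb1 and Tnfrsf17 stays at 0.52 or above at right, where the Prdm1 row with these genes lies between -0.20 and -0.02.

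The genes outside the set whose values were most like each member were sought among 11109 genes above log2 5 on at least 5 arrays, over the 23 arrays. Pou2af1 was most like Klhl6 (r = 0.974), a B cell gene, followed by Dnase1l3 and Cd53. Irf4 was most like Coro1a (0.964), Arhgdib and Rac2, 3 genes that leukocytes express widely. Mzb1 was most like the immunoglobulin kappa variable gene Igkv8-30 (0.945), then Ms4a6b and Cd53, and Derl3 was most like E330020D12Rik (0.962), Dnase1l3 and AI504432. Tnfrsf17 was most like Adcy4 (0.900), the plasma cell gene Eaf2 and Krr1. Prdm1 stood with other genes, the mast cell carboxypeptidase Cpa3 (0.924), the IgE receptor chain Fcer1a (0.923) and Rnase2a (0.918). With the group means subtracted these values were 0.49, 0.42 and 0.38, beside 0.94 for Klhl6 with Pou2af1, 0.89 for Coro1a with Irf4 and 0.89 for Igkv8-30 with Mzb1. The nearest genes of Xbp1 (Pbdc1, 0.745), Sdc1 (Dedd2, 0.729) and Pigr (Cutal, 0.835, then Hao2 and Kazald1) were less alike.

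Other plasma cell genes were read from a list of 11, of which 10 were measured. With TNBS 6 of 10 rose in wild type and 5 of 10 in the knockout, with medians of 0.76 and 0.48. Eaf2, an elongation factor partner, rose by 1.40 ± 0.28 and 1.73 ± 0.28. Fkbp11, a folding enzyme of secretory cells, rose by 1.03 ± 0.19 in wild type (adjusted p = 0.0011) and differed by 0.45 in the knockout (adjusted p = 0.158). With TNBS it was lower in the knockout by 0.77 ± 0.18 (adjusted p = 0.00876), without overlap. The J chain gene Jchain ranged from 13.16 to 13.22 in untreated wild type and from 12.66 to 13.07 in the untreated knockout. It was lower there by 0.35 ± 0.08 (adjusted p = 0.0192), in the same comparison in which Mzb1, Pou2af1 and Derl3 were lower, and the call ended without replicate 4 of the untreated knockout (0.0571). With TNBS, Jchain differed by 0.14 in wild type (interval -0.02 to 0.31) and was not called. In the knockout it rose by 0.29 with TNBS, a call lost on leaving out any 1 of 3 arrays (adjusted p up to 0.0727).

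Of 11 immunoglobulin constant genes, 3 had a probe set named for them alone. Igha, the heavy chain of IgA, ranged from 14.40 to 14.48 in untreated wild type and from 14.50 to 14.62 with TNBS, a difference of 0.12 ± 0.04 (adjusted p = 0.0619). Of its 3 probe sets, 1421653_a_at alone passed over all probe sets in that comparison, at 0.18 ± 0.05 (adjusted p = 0.0249). In the knockout Igha ranged from 14.17 to 14.43 and, with TNBS, from 14.30 to 14.49. Between untreated genotypes its 3 probe sets differed by -0.28 to -0.13, and none passed over all probe sets. With TNBS it was lower in the knockout by 0.14 ± 0.04 (adjusted p = 0.0328), and 2 of its 3 probe sets passed over all probe sets. That call ended without replicate 1, 2, 6 or 7 of the knockout with TNBS or replicate 1, 4, 5 or 6 of wild type with TNBS (adjusted p up to 0.074), after quantile normalization (0.0513) and with the replicate block (0.136). The Ighm probe set rose by 4.79 ± 0.31 in wild type and by 4.36 ± 0.30 in the knockout. The 11 probe sets named Ighm did not move alike, with differences from 0.00 to 6.39 in wild type and 7 of them passing over all probe sets, and cross-hybridisation with other heavy chains was not tested. Ighg3 was lower in the knockout by 3.44 ± 0.63 without TNBS (adjusted p = 0.00402) and by 2.24 ± 0.56 with it (adjusted p = 0.0136), with no overlap in either. The mean of all its probe sets gave smaller differences of -0.997 and -0.62, both still called (adjusted p = 0.00336 and 0.0140). The untreated call ended in a fit of those groups alone (adjusted p = 0.0745), and the call with TNBS ended with the replicate block (0.0752).

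Of 13 B cell genes measured, 5 rose with TNBS in wild type and 6 in the knockout, and the others did not pass, with list medians of 1.12 and 1.18, and Pax5 was at the lowest value on all arrays. Several of these calls depended on single arrays. The least stable was Cd79b, named here after its values were seen. Its call was lost on leaving out any 1 of 9 arrays in wild type and any 1 of 16 in the knockout. The log2 of the summed level of the list ranged from 10.91 to 11.69 in untreated wild type and from 11.64 to 12.29 with TNBS. It ranged from 10.51 to 11.33 in the untreated knockout and from 10.96 to 12.30 with TNBS. Cd22, an inhibitory receptor of B cells, rose by 1.91 ± 0.51 in wild type (adjusted p = 0.0138), and Ebf1, an early B cell factor, by 1.03 ± 0.18 in the knockout. T cell genes rose in 9 of 9 and 7 of 9 cases and macrophage genes in 9 of 10 and 8 of 10, with summed T cell levels of 8.65 to 9.16 and 9.73 to 10.28 in wild type without and with TNBS. The macrophage sums were 12.10 to 12.49 and 12.95 to 13.81 there. Between genotypes with TNBS, 9 of 10 macrophage genes and 4 of 9 T cell genes were called lower in the knockout, beside 10.5% of all genes called either way. Of 13 B cell genes 1 was called there, Bcl6, which was higher, and its call was lost on leaving out any 1 of 9 arrays. The list medians were all negative, at -0.93 for macrophage, -0.42 for T cell and -0.51 for B cell genes. The part of these cell types in the levels of the 9 genes was not tested.

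Signals that direct IgA switching and plasma cell survival were measured for 13 of 15 listed genes. With TNBS, 5 rose in wild type, while in the knockout 1 rose and 1 fell. Tnfsf13b, the gene of BAFF, a ligand of BCMA, rose by 0.86 ± 0.12 in wild type (adjusted p = 8.08e-05) and differed by 0.28 ± 0.12 in the knockout (adjusted p = 0.158). With TNBS it was lower in the knockout by 0.51 ± 0.11 (adjusted p = 0.00685). Cd40, the B cell receptor for T cell help, was lower there by 0.98 ± 0.24 (adjusted p = 0.012), as were 5 genes of the list in all. Il5, Il6 and Il21 were at or near the lowest value.

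Homing genes split by direction with TNBS in wild type, where 6 of 11 rose and 2 fell, beside 6.27% of all genes called lower. Ccl28, the epithelial chemokine that draws IgA plasma cells, fell by 0.91 on the log2 scale (standard error 0.20, adjusted p = 0.00352). It ranged from 10.18 to 11.35 in untreated wild type and from 9.79 to 10.18 with TNBS. Ccl25, which draws cells to the small intestine and is named here after its value was seen, fell by 0.83 on that scale (adjusted p = 0.0175, or 0.0544 without untreated wild-type replicate 5). In the knockout the Ccl28 difference was -0.50 ± 0.19 (adjusted p = 0.115). Vcam1, a vascular adhesion molecule that binds the integrin of Itga4, rose by 1.39 ± 0.20 in wild type and 0.88 ± 0.19 in the knockout. Cxcr4, the receptor for the niche chemokine CXCL12, was lower in the knockout by 0.98 ± 0.19 without TNBS and by 0.87 ± 0.17 with it, with no overlap in either (adjusted p = 0.00631 and 0.00268).

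Signals known to induce Pigr were measured for 18 of 21 listed genes. In wild type 4 rose with TNBS and 1 fell, and in the knockout none was called with limma. The fall was that of Usf1, an E box factor named here after its value was seen, and its call held only without replicate 2 or 5 of untreated wild type or replicate 2, 4 or 5 of the untreated knockout. Without any 1 of the other 18 arrays it was lost (adjusted p up to 0.126). Il1b, the gene of interleukin-1 beta, rose by 1.89 ± 0.45 in wild type (adjusted p = 0.00594), from between 6.998 and 7.79 to between 8.23 and 10.49. The interleukin-4 receptor gene Il4ra rose by 0.80 ± 0.13 (adjusted p = 0.000267). In the knockout with TNBS, Il1b was lower than in wild type by 2.14 ± 0.41 and Il4ra by 0.60 ± 0.12. Pigr itself differed by 0.08 in that comparison. Ifng had group means of 2.17 to 2.28, at or near the lowest value, so its level is not resolved here.

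Of 26 genes of the secretory pathway and its stress response, 4 rose with TNBS in wild type and 2 in the knockout, beside Derl3, which is in the same pathway. Over all genes 10.2% and 4.08% were called higher, and the list medians were 0.06 and 0.00. The wild-type calls of Sec61a1 and Edem2 were each lost on leaving out any 1 of 3 arrays, and that of Ssr4 in the knockout any 1 of 10. Edem1, which sends misfolded glycoproteins for removal, rose by 0.47 ± 0.07 and 0.31 ± 0.06. Hspa5, the main chaperone of the endoplasmic reticulum, differed by -0.01 and 0.16 and was not called. Between genotypes with TNBS, 7 of 26 were lower in the knockout and none was higher, beside 1223 of all 18194 genes called lower. They were led by Sec61a1 at -0.26 ± 0.05 and Sdf2l1 at -0.72 ± 0.14. Among receptors for antibodies, 7 of 10 rose with TNBS in wild type and 6 of 10 in the knockout. Fcer1a rose by 6.34 ± 0.32 and 4.31 ± 0.31, and Fcgr2b, the inhibitory IgG receptor, by 1.52 ± 0.23 and 1.34 ± 0.22.

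**Figure D4:**
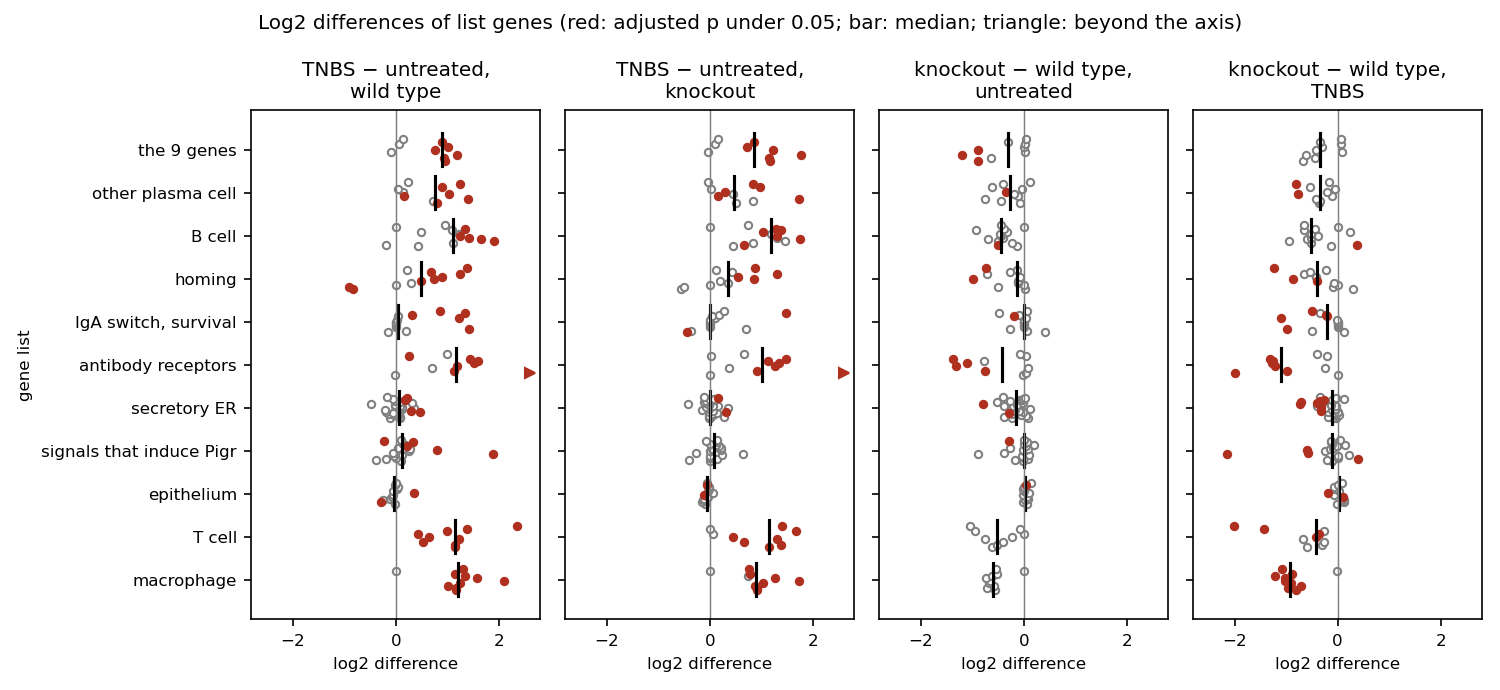
Log2 differences (horizontal axis) of the genes of 11 lists in 4 comparisons, filled red where the adjusted p was under 0.05, with the list median as a black bar and a triangle for Fcer1a beyond the axis. The bar of the 9 genes lies at 0.89 and 0.85 with TNBS, beside 1.12 and 1.18 for the B cell list, and the points of the epithelial list stay close to 0.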

How the data were processed

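Colon RNA of 23 samples was measured on 1 array each. The authors deposited log2 intensities for 45101 probe sets; RMA and GCRMA are named in the submitters' processing notes, without a version, and the sources used here do not say which made the values. The values ran from 2.17 to 15.98, with 27.9% at the lowest value, below which fold changes are understated. The number of arrays limits the precision. No arrays were identical, and no batch is given in the labels or files.

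Groups came from the sample titles. Of the probe sets, 34958 were annotated (in 2016) to 1 gene, 932 to several and 9211 to none here; 34754 gene IDs matched RefSeq GRCm38.p6. For 18194 genes the probe set of highest mean stood for the gene. With limma (lmFit, eBayes), group means were estimated over the 23 arrays, with 19 residual and 0.475 prior degrees of freedom, with 5 contrasts and Benjamini-Hochberg adjustment over all genes. Quality measures were compared by two-sided exact permutation tests. The procedure was tested on simulated data. The 9 genes and all context lists were chosen with earlier results of these data known. Named genes are the 9, up to 4 of each list with the smallest p in a comparison (some named there also have values given in other comparisons, and Hspa5, Ifng, Jchain, Igha, Cd22 and the interleukins with low signal were named for their known roles) and the 3 most correlated with each member. Alternatives covered the variance prior, array weights, the groups fitted, a filter and a floor at log2 5, the probe set rule, normalization, covariates, a replicate block and the omission of each array in turn. Promoter windows were taken from RefSeq, and none is printed for Mzb1. Software was R 4.3.3 with limma 3.58.1 and the data.table package (1.17.8), and Python 3.11.15 with matplotlib 3.10.9.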

Additional observations from a re-analysis of the deposited data

Results flagged for a closer look

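The TNBS effect differed between the genotypes for 5 of the 151 genes measured in the context lists (3.31%, beside 2.00% of all genes) by the interaction test of limma, and for none of the 9 plasma cell genes and Pigr. Bcl6, the repressor of germinal centre B cells that opposes Prdm1, had a difference of 0.86 (adjusted p = 0.0123): it rose by 0.67 in the knockout and changed by -0.20 in wild type, where it was not called. Against wild type it was called lower in the untreated knockout (-0.56 to -0.42 over the alternatives) and higher with TNBS (0.31 to 0.42). These calls were lost on leaving out any 1 of 5 and any 1 of 9 arrays. Tgfb1, the cytokine of IgA switching, had -1.14 (adjusted p = 0.0155), with group means of 2.67 and 3.90 in wild type without and with TNBS, so near the lowest value that the call ended when values below log2 5 were set to 5. Fcer1a, a chain of the IgE receptor, had -2.03 (adjusted p = 0.0225, or 0.0813 with the replicate block). Krt18, an epithelial keratin, had -0.30 (adjusted p = 0.0120). Pou2f2, the octamer-binding factor that POU2AF1 assists, had -0.82 (adjusted p = 0.0432), with group means between 2.31 and 3.14, and this call was lost on leaving out any 1 of 18 arrays (adjusted p up to 0.076). It held without replicate 4 of the knockout with TNBS or replicate 2, 3, 4 or 6 of wild type with TNBS. No value of the 9 genes or of the quality measures stood apart from its group by Dixon's test in the 48 group checks. These checks do not cover the other genes of an array, and with few arrays per group they detect only large gaps. The Gapdh 3' minus 5' signal, a measure of RNA integrity, was lower in the knockout with TNBS (0.943 ± 0.031, SD, n = 7) than in wild type with TNBS (1.06 ± 0.072, n = 6, exact permutation p = 0.00291, adjusted over 12 tests 0.035), and its part in the genotype differences was not tested.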

How the results depend on the processing

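Of 358 counts of called genes, each recomputed under 1 alternative, 330 stayed within 1.5 times the original. With the squamous mean as a covariate, calls among the 9 genes with TNBS in wild type went from 6 to 1, and calls over all genes with TNBS from 2998 to 1423 in wild type and from 1556 to 619 in the knockout. The epithelial mean as a covariate gave 824 in the knockout and 0 rather than 3 of the 9 genes between untreated genotypes. Fitting only the groups compared gave 856 of all genes with TNBS in the knockout, 288 rather than 879 between untreated genotypes and 0 of the 9 there; it gives no value for the difference of TNBS effects. Testing every probe set gave 4682 with TNBS in wild type and 3345 rather than 1902 between genotypes with TNBS. These counts are out of 34958 probe sets tested rather than 18194 genes, so the larger counts are not larger shares. The filter on dim probe sets, and setting values below log2 5 to 5, each gave 1 call (Derl3) rather than 0 among the 9 between genotypes with TNBS. The same floor left 5 rather than 6 of the 9 called with TNBS in wild type. It left 4 rather than 6 in the knockout and 2 rather than 3 between untreated genotypes. The filter removed Tnfrsf17 before the test. Among the 8 genes tested, the other 5 stayed called with TNBS in each genotype. The epithelial covariate left 5 and 4 with TNBS. Whether the replicate numbers pair samples is not known from the labels. Of 30 pairs with the same number, 9 correlated above 0.1 (median 0.02, range -0.51 to 0.43). In 10 of 60 comparisons the own number was best. This check is weak and cannot exclude a pairing. With the replicate block, 1230 of all genes were called between genotypes with TNBS and 172 rather than 363 for the difference of TNBS effects, and Tnfrsf17 was no longer called with TNBS (adjusted p = 0.0578 in wild type and 0.078 in the knockout).

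Leaving out each array gave 5 to 6 of the 9 genes with TNBS in wild type and in the knockout, 0 to 3 between untreated genotypes, 0 to 1 between genotypes with TNBS and 0 to 0 for the difference of effects. Over all genes the ranges were 2250 to 3158, 1014 to 1835, 458 to 1021, 1391 to 2106 and 213 to 443. Median centring moved the share of called genes that were higher with TNBS in wild type from 62.0% to 43.4%, and between untreated genotypes from 60.4% to 41.6% (49.7% after quantile normalization). With the mean of all probe sets of a gene, Ssr4 (-0.0254) and Epcam (0.0558) changed sign with TNBS in the knockout. The cause of these changes was not tested. Low signal limits Tnfrsf17 and Derl3, whose values lie mostly below log2 5 or near it.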
